A study of Homo sapiens with 3 samples.

Results

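The genes described here are 10 regulators and markers of the epithelial to mesenchymal transition (EMT), VIM, CDH2, FN1, SNAI1, SNAI2, ZEB1, ZEB2, TWIST1, SPARC and CD44, measured in SAS cells with and without siRNA against ARID1A. Members were the probe sets whose gene symbol in the authors' deposited tables is 1 of these names. All 10 were found, as 13 of the 53617 probe sets on the array, and 29402 genes had at least 1 probe set. SAS is a human squamous carcinoma line of the tongue, and ARID1A encodes a DNA-binding member of SWI/SNF, which remodels chromatin. The treated group held 2 arrays of SAS cells given ARID1A siRNA, called array 108 and array 109 after the numbers in their titles, and the comparison group held 1 array of mock SAS cells, titled SAS NC. RNA was hybridised to Affymetrix Human Gene 2.0 ST arrays, 1 RNA per array, and siRNA was delivered with Lipofectamine RNAiMAX. The labels state neither the siRNA sequences, nor what the mock cells received, nor how long after transfection RNA was taken. Nor do they say that arrays 108 and 109 are from different cultures, so p-values measure only the spread between these arrays, which may be technical.

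In EMT, epithelial cells give up cadherin junctions and take on migratory, matrix-producing behaviour. The transcription factors SNAI1, SNAI2, ZEB1, ZEB2 and TWIST1 repress junction genes such as CDH1 (E-cadherin), while VIM (vimentin, an intermediate filament protein), CDH2 (N-cadherin), FN1 (fibronectin) and SPARC (osteonectin, a matrix glycoprotein) mark the mesenchymal state. CD44 is the hyaluronan receptor, and squamous carcinomas often hold a partial form of this programme.

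The EMT members lay on both sides of their mock values. FN1 was 2.46-fold higher than in mock cells on array 109, but 1.10-fold on array 108. SNAI2 was slightly lower on both siRNA arrays, VIM, ZEB1 and ZEB2 had identical values on all 3 arrays, and the main CD44 probe set stayed within 0.08 of the mock value on the log2 scale. ZEB1, ZEB2 and TWIST1 lay below the negative control mean on every array. No member passed the limma test, and with this few arrays a p that misses the threshold does not show that values did not differ.

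Values are log2 expression as normalized by the authors. The negative control mean in the file headers, used here as the floor of detection, lay at log2 4.36 for array 108, 4.65 for array 109 and 4.43 for mock, and 52.1%, 46.1% and 50.5% of genes had a probe set above it. Genes whose mean lay under the 30th percentile, log2 3.52, were left out of the test, which kept 20582 genes and 8 of the 10 members, all but ZEB1 and ZEB2. Of the 13 member probe sets, 6 were identical across the 3 arrays, as were 43.9% of all probe sets. Why so many values are identical was not tested. ARID1A itself was at log2 5.72 (array 108) and 5.32 (array 109) with siRNA, against 6.79 in mock cells. Both siRNA arrays thus lay below the mock array (differences of -1.07 and -1.47). The limma estimate was -1.27 ± 0.23 (SE of the fit), and ARID1A did not pass limma either. In RNA from whole cultures, fewer cells of a type and less RNA per cell cannot be told apart.

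Of 10 squamous carcinoma markers, 6 were above the floor on all arrays (EPCAM, CDH1, SFN, TP63, KRT5 and DSG3). The keratins KRT14 and KRT17 were above it on 2 arrays and KRT6A on 1, and TRIM29 was below it on all. The linear intensities of these 10 summed to 5879 (array 108) and 4373 (array 109) with siRNA and 5058 in mock cells. SFN, the brightest, weighs most in these sums, at log2 11.51 (array 108), 10.91 (array 109) and 11.37 (mock). Fibroblast markers summed to 384.4 and 381.8 on the siRNA arrays and 386.1 on the mock array. FAP, the brightest of them, weighs most in these sums, at log2 7.64 (array 108), 7.61 (array 109) and 7.61 (mock). Of these 10 markers, 6 were below the floor on all arrays, including COL1A2, COL3A1, DCN and PDGFRA, while FAP, COL1A1 and ACTA2 were above it on all. Of 10 leukocyte markers 7 were below the floor on all arrays, including PTPRC and CD3E, and so were 4 of 7 endothelial markers, including KDR.

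Among the EMT transcription factors, SNAI2 (Slug, a zinc finger repressor of CDH1 on chromosome 8) was read at log2 10.13 (array 108) and 10.13 (array 109) with siRNA, against 10.35 in mock cells. The siRNA arrays were tied and both lay below the mock array, a log2 difference of -0.22 ± 0.16 (SE of the fit). The signal stood 5.76 and 5.47 above the floor on the siRNA arrays and 5.92 above it on the mock array. SNAI2 did not pass limma (adjusted p = 1). With a prior spread estimated from all genes, which the tied values bring close to 0, its limma adjusted p was 0.0185.

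SNAI1 (Snail, the founding zinc finger factor of EMT, on chromosome 20) was at log2 5.11 (array 108) and 5.44 (array 109) with siRNA, against 5.36 in mock cells. The mock value lay between the siRNA values, so the groups overlapped. The difference from mock was -0.25 on array 108 and 0.07 on array 109, and the limma estimate was -0.09 ± 0.20 (SE). Its signal was 0.75 to 0.93 above the floor over the 3 arrays.

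TWIST1 (a basic helix-loop-helix factor on chromosome 7) was at log2 4.29 on both siRNA arrays, against 4.39 on the mock array. All 3 values were below the floor, so no fold change is given. Like SNAI2 it was tied on the siRNA arrays, and it passed limma with the prior from all genes (adjusted p = 0.000631) and not otherwise (adjusted p = 1).

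ZEB1 on chromosome 10, a zinc finger and homeodomain repressor of CDH1, was at log2 3.25 on all 3 arrays. ZEB2 on chromosome 2, its paralog, had a probe set for the coding transcript at 3.86 on all 3 arrays and another for a retained-intron transcript at 1.97. No array had ZEB1 or ZEB2 above the floor, and no difference between the groups was detectable for either gene at this signal. ZEB mRNAs are well-known targets of the miR-200 family, which holds them down in epithelial cells. The mature family members are shown because they fall into 2 groups by seed, which is in capitals (bases 2 to 8). They are taken from RefSeq (GRCh38.p14), where miR-200b-3p lies at chr1:1167160-1167181, miR-200a-3p at chr1:1167916-1167937 and miR-429 at chr1:1169055-1169076, and miR-200c-3p at chr12:6963742-6963764 and miR-141-3p at chr12:6964155-6964176, all on the plus strand.
hsa-miR-200b-3p: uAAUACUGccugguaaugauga
hsa-miR-200c-3p: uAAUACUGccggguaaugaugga
hsa-miR-429: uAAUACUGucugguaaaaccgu
hsa-miR-200a-3p: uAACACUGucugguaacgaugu
hsa-miR-141-3p: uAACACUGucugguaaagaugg
The precursor probe sets of these microRNAs lay near or below the floor. Of 6 EMT microRNA loci tested, 1 was higher on both siRNA arrays, against 13.1% of all genes tested, and 2 were lower, against 16.2%. The higher one was MIR200C, below the floor on all arrays, so it gives no detected difference. Its siRNA values lay above the filter level of log2 3.52 and its mock value under it. None of the 6 passed limma. MIR200B was at log2 4.75 (array 108) and 4.8 (array 109) with siRNA, against 4.75 in mock cells, and MIR141 at 4.75 and 4.78, against 4.75, all above the floor. MIR200A and MIR429 were below the floor and identical on all arrays. MIR200C was at 3.65 and 4.01 on the siRNA arrays and 2.96 on the mock array, also below the floor throughout. The host transcript MIR200CHG was above the floor, at 6.54 on both siRNA arrays and 6.60 on the mock array. MIR205HG, host of another microRNA that targets ZEB mRNAs, was at 8.22 and 8.03 on the siRNA arrays, against 8.30 on the mock array.

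Of the mesenchymal markers, FN1 on chromosome 2 was at log2 6.65 (array 108) and 7.81 (array 109) with siRNA, against 6.51 in mock cells. Array 109 stood apart, and array 108 lay near the mock array. The differences from mock were 0.14 and 1.30, with a mean of 0.72 ± 0.82 (SD, n = 2), and FN1 did not pass limma (SE 0.46, adjusted p = 1). Array 109 exceeded array 108 by 1.16, nearly as much as it exceeded the mock array. Of all genes tested, 0.238% were as far from the mock array as FN1 on array 109, and 25.4% were as far as FN1 on array 108. FN1 was the 1 member probe set that the authors' deposited table flags as 2-fold changed on array 109, and that table flags 0 on array 108. Without array 109 the FN1 difference was 0.14, and without array 108 it was 1.30.

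The FN1 promoter is shown as the start region of the member with the largest difference. The window runs from 250 bases before to 50 bases after the RefSeq gene start, at chr2:215436019-215436318 on the minus strand (GRCh38.p14). Capitals mark TGACGTCA, the cAMP response element, which begins 183 bases before the start and reads the same on both strands.
FN1 promoter: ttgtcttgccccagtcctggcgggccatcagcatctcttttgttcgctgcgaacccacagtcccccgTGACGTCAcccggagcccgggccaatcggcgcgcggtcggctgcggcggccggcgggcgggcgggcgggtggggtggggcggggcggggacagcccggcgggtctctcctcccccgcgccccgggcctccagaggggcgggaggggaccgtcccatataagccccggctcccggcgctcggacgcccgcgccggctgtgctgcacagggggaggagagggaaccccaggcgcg
This motif is in 1.85% of the 35116 promoter windows in the table and in 1 of the 14 windows of the 7 members listed there. The Sp1 motif GGGCGG, searched on both strands, occurs 6 times in the FN1 window, and 45% of all windows hold it at least once.

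VIM on chromosome 10 was at log2 5.33 on all 3 arrays, between 0.67 and 0.97 above the floor, so the siRNA arrays and the mock array could not be told apart. CDH2 on chromosome 18 was read by a pair of probe sets. The one for a RefSeq mRNA was at 6.0 (array 108) and 6.28 (array 109) with siRNA, against 6.39 in mock cells, and both siRNA values were lower (differences of -0.39 and -0.12). The other, for a predicted variant, was at 1.32 on all 3 arrays, far below the floor. Averaged over both, CDH2 differed by -0.13 ± 0.15 (SE), and by -0.25 ± 0.21 (SE) with the brighter probe set alone, and it passed limma in neither (adjusted p = 1 in each).

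SPARC on chromosome 5 was at log2 7.99 (array 108) and 7.66 (array 109) with siRNA, against 7.66 in mock cells. Here array 108 was the high one, by 0.33, and array 109 differed from mock by 0.002 on the lower side. The limma estimate was 0.17 ± 0.23 (SE). CD44 on chromosome 11 was at 10.22 (array 108) and 10.30 (array 109) with siRNA, against 10.22 in mock cells, with the mock value between the siRNA values. A further probe set, for a cDNA clone, was at 4.79 on all 3 arrays, just above the floor.

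**Figure D1:**
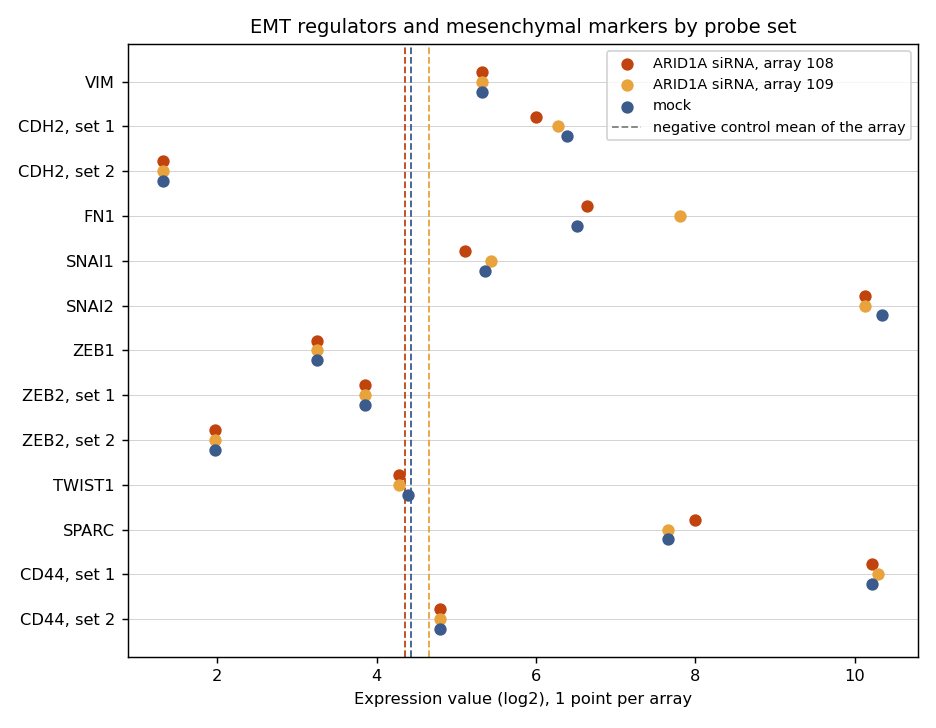
Log2 expression of the 13 member probe sets (rows) on the ARID1A siRNA arrays 108 and 109 and the mock array, 1 point per array, with dashed lines at each array's negative control mean. FN1 on array 109, at 7.81, stands apart from array 108 and the mock array, and the ZEB1, ZEB2 and TWIST1 points lie left of their lines.

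Counted over the 8 members tested, 1 was higher than mock on both siRNA arrays (FN1), 3 were lower on both (CDH2, SNAI2 and TWIST1) and 4 did neither. TWIST1 was below the floor on all arrays, so among detected members only CDH2 and SNAI2 were lower on both. Under quantile or cyclic loess scaling 3 were higher on both. The count of all genes higher on both also rose, to 5047 of 20604 under quantile and 5689 of 20582 under cyclic loess scaling, from 2703 of 20582. Without such rescaling, 13.1% of all genes tested were higher on both, 16.2% lower on both and 38% identical on all arrays. These shares, also set beside the lists, include undetected genes: 13472 of the 20582 were above the floor on all arrays. Of the genes on 1 side of mock on both arrays, 44.8% were higher; with each array centred on its median, which moves tied values apart, this share was 15.8%. At least a 1.5-fold difference in the same direction on both arrays was reached by 0 members, against 0.34% of genes higher and 0.272% lower. On array 109 alone 1 member was at least 1.5-fold higher, against 1.15% of genes, and 0 were at least 1.5-fold lower, against 1.73%. On array 108 alone 0 members were that much higher or lower, against 0.768% and 1.49% of genes. The 1 member past 2-fold was FN1 on array 109, against 0.253% of genes. The median difference of the 8 members was -0.05 on array 108 and -0.001 on array 109, and that of all genes was 0 on each. By limma at a false discovery rate of 5%, 0% of genes and 0 members were called, and at an unadjusted p under 0.05 it gave 228 higher and 225 lower genes, none of them a member. The fit had 1 residual degree of freedom, and an exact permutation of 2 arrays against 1 cannot give a p below 0.333 for a single gene.

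**Figure D2:**
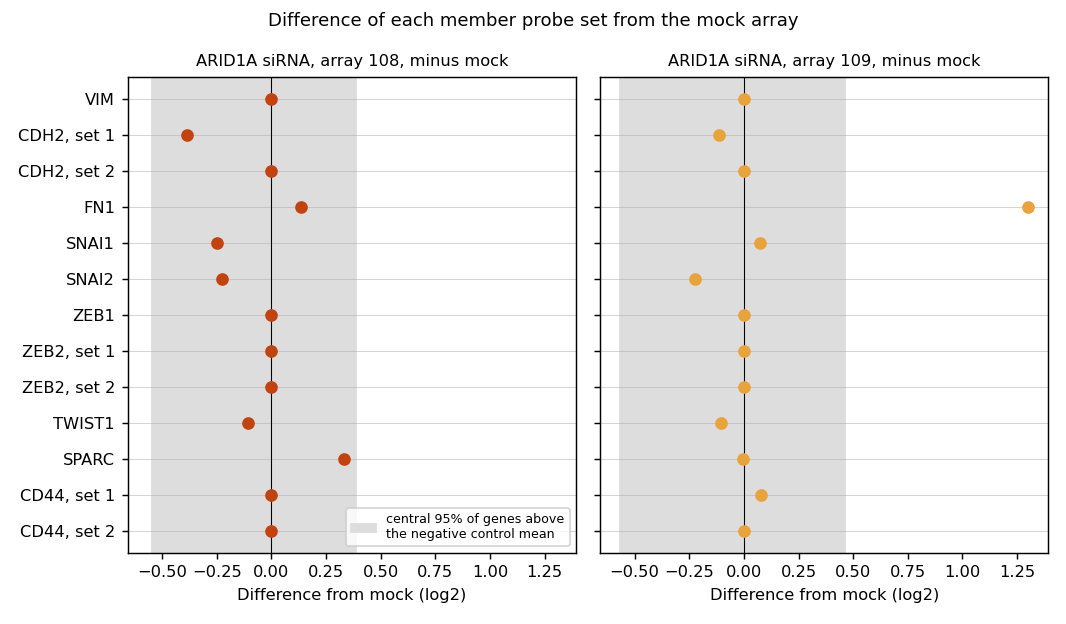
Difference of each member probe set from the mock array (log2) on array 108 (left) and array 109 (right), with a grey band for the central 95% of the 13472 genes tested that were above the negative control mean on all arrays (-0.55 to 0.39 on array 108, -0.57 to 0.46 on array 109). FN1 on array 109, at 1.30, is the 1 point outside the band.

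Genes with differences most like those of FN1 were INHBA (the activin beta A chain), ABL2 (a tyrosine kinase) and IL6R (the interleukin 6 receptor), by Euclidean distance over the pair of differences among the 12494 genes tested that were above the floor on all arrays and whose symbols do not begin with LOC, LINC, MIR, SNORD or SNORA. INHBA was at log2 6.85 (array 108) and 8.05 (array 109) with siRNA, against 6.62 in mock cells. Its distance from FN1 was 0.16, and those of ABL2 and IL6R were 0.24 and 0.25. Near SPARC lay PLEKHB1 and MVP, which were 0.32 and 0.34 higher on array 108 and equal to mock on array 109. This likeness rests on 3 arrays and on differences that share the mock array.

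The other EMT transcription factors were mostly near their mock values. Of 15 tested, 4 were higher on both siRNA arrays, against 13.1% of all genes tested, and 1, FOXC1, lower on both, against 16.2%. The median difference was 0 on each array, and 0 passed limma. SOX9, a progenitor factor, was at log2 9.40 (array 108) and 10.12 (array 109) with siRNA, against 9.15 in mock cells. SOX4 was at 7.09 and 6.92 on the siRNA arrays, against 6.71 on the mock array, and SNAI3, a further Snail family gene, at 5.16 and 5.09, against 4.88. FOXC2, a forkhead factor of EMT, was at 4.61 and 4.74 on the siRNA arrays, above the floor, and at 4.17 on the mock array, below it, so the mean of the siRNA arrays, set against the floor of the mock array, was at least 1.18-fold higher than mock. TWIST2 was identical on all arrays, at 5.55.

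Mesenchymal and matrix genes went both ways. Of 30 such genes 11 were below the floor on all arrays. Of 26 tested 5 were higher on both siRNA arrays, 4 lower on both and 11 identical on all 3, with a median of 0 on each array. The shares of all genes tested were 13.1%, 16.2% and 38%. COL5A2, counted as higher, was below the floor on all arrays. BGN, a small matrix proteoglycan, was at log2 7.69 (array 108) and 7.62 (array 109) with siRNA, against 8.63 in mock cells, so both siRNA arrays lay lower (differences of -0.94 and -1.01). TNC (tenascin C) was at 8.57 and 8.52 on the siRNA arrays, against 8.04 on the mock array, and LOX, a collagen cross-linking enzyme, at 8.03 and 7.55, against 7.30. LGALS1 (galectin 1) was at 6.89 (array 108) and 5.69 (array 109) with siRNA, against 7.14 in mock cells, low mainly on array 109. None passed limma: the estimates were -0.97 ± 0.20 for BGN, 0.51 ± 0.20 for TNC, 0.49 ± 0.26 for LOX and -0.84 ± 0.47 for LGALS1 (SE), with adjusted p = 1 in each.

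Genes of the partial EMT programme known from head and neck carcinoma included several of the same matrix genes. Of 39 tested, 12 were higher on both siRNA arrays, against 13.1% of all genes tested, and 7 lower on both, against 16.2%. These counts include COL5A2 as higher and MMP1 as lower, both below the floor on all arrays. The median was 0 on each array, and 0 passed limma. At least a 1.5-fold difference on both arrays was reached by 2 of them, both higher, PLAU among them, against 0.34% of all genes tested. PLAU (urokinase) was at log2 8.67 (array 108) and 8.40 (array 109) with siRNA, against 7.81 in mock cells. FSTL3, an activin-binding protein, was lower, at 5.74 and 5.64 on the siRNA arrays, against 6.13 on the mock array. MMP2, a gelatinase, was named after its values were seen: its mRNA probe set was at 7.5 (array 108) and 6.01 (array 109) with siRNA, against 7.27 in mock cells.

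**Figure D3:**
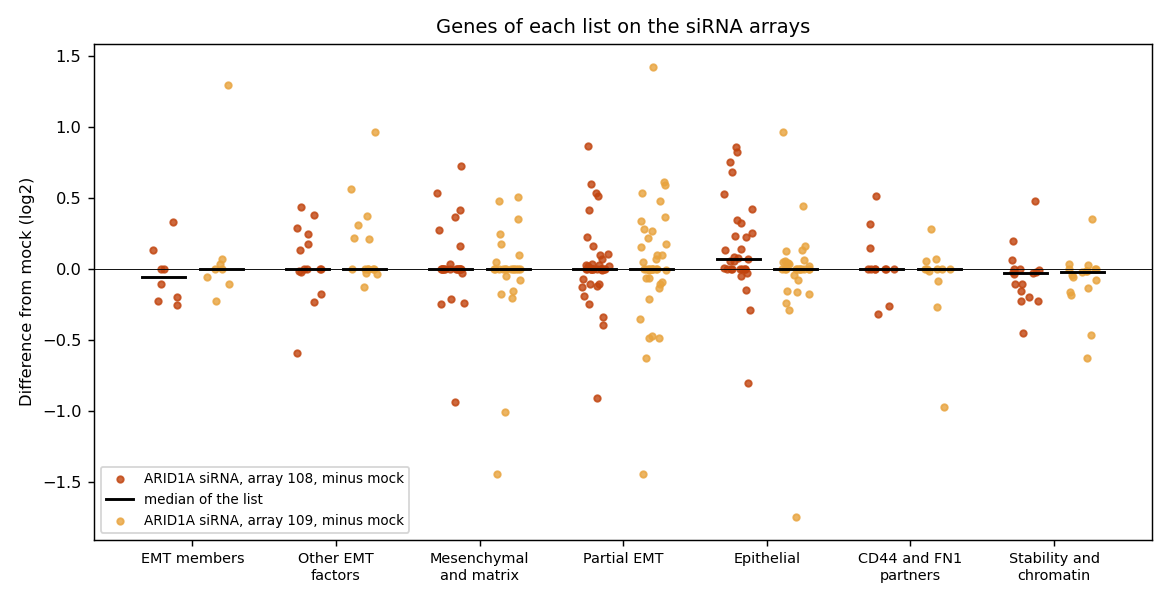
Differences from the mock array (log2) of the genes tested in 7 lists, 1 point per gene, array 108 left and array 109 right in each list, with the list median as a black line. The medians lie at or near 0, and the FN1 point on array 109 is the highest of the EMT members.

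On the epithelial side, 11 of 31 genes were higher on both siRNA arrays, against 13.1% of all genes tested, and 3 lower on both, against 16.2%. Some of the 11 were barely higher on array 109, such as MARVELD2 (0.02) and CDH1 (0.03), and GRHL3 was below the floor on all arrays. The medians were 0.07 on array 108 and 0 on array 109, and 0 passed limma. CLDN1, a tight junction claudin, was at log2 10.62 (array 108) and 10.90 (array 109) with siRNA, against 9.94 in mock cells. It was the 1 gene of this list at least 1.5-fold higher on both, against 0.34% of all genes tested. CLDN7 was at 8.33 and 8.02 on the siRNA arrays, against 7.58 on the mock array, and LSR, of tricellular junctions, at 10.09 and 10.11, against 9.95. TJP1 (the junction scaffold ZO-1) was at 8.67 (array 108) and 7.21 (array 109) with siRNA, against 8.96 in mock cells. CDH1, the target repressed by SNAI and ZEB factors, was chosen for its role after values were seen. It was at 9.53 (array 108) and 9.03 (array 109) with siRNA, against 9.0 in mock cells, so array 108 was high and array 109 lay near mock.

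**Figure D4:**
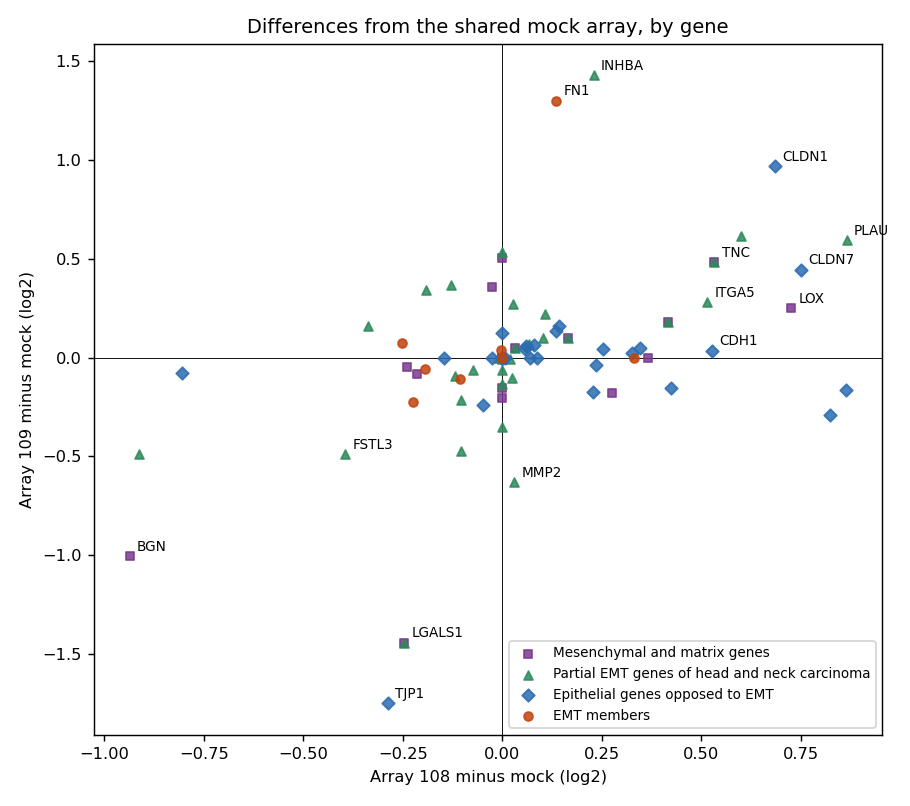
Difference from the mock array on array 108 (x axis, log2) and array 109 (y axis, log2) for the EMT members, mesenchymal, partial EMT and epithelial genes tested, 1 point per gene, averaged over its probe sets. FN1 and INHBA lie near the vertical axis at 1.30 and 1.43, BGN lies at -0.94 and -1.01, and most EMT members lie near the centre.

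Partners of CD44 and fibronectin (hyaluronan synthases, cytoskeletal linkers, a secreted ligand and receptors) gave 1 of 12 genes higher and 2 lower on both siRNA arrays. Of all genes tested, 13.1% were higher and 16.2% lower on both. The medians of these partners were 0 on each array, and 0 passed limma. ITGA5, the alpha chain of the main fibronectin receptor, was at log2 7.88 (array 108) and 7.64 (array 109) with siRNA, against 7.36 in mock cells, while its partner ITGB1 was identical on all arrays, at 6.86. HMMR, a hyaluronan receptor that also acts at the mitotic spindle, was at 8.76 and 8.10 on the siRNA arrays, against 9.07 on the mock array. ITGA4 was at 6.91 and 7.08, against 7.17.

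Corepressors and stability factors of SNAI and ZEB proteins were lower on both siRNA arrays in 7 of 17 genes, against 16.2% of all genes tested. None was higher on both, against 13.1%, and 1 was identical on all arrays, against 38%. All 17 were above the floor on all arrays, but only 13472 of the 20582 genes behind these shares were. The list and its background therefore differ in detection, and shares among detected genes alone were not taken. CSNK1E, HDAC1 and SIN3A counted as lower with differences as small as -0.01, -0.02 and -0.02 on 1 array. The medians were -0.02 on each array, and 0 passed limma. AJUBA, a LIM protein that acts with SNAI1, was at log2 8.42 (array 108) and 7.99 (array 109) with siRNA, against 8.61 in mock cells. CTBP1, a corepressor recruited by ZEB proteins, was at 5.6 and 5.36, against 5.83. KDM1A, the histone demethylase LSD1, was at 9.48 and 9.46, against 9.59, and its partner RCOR1 at 8.06 and 8.21, against 8.29. The differences of these last 2 genes were at most 0.22 in size.

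SNAI and ZEB proteins bind the E-box letters CACCTG. This motif was searched on both strands of the 14 promoter windows, which belong to 7 members. Promoters of SNAI1, SNAI2 and TWIST1 were not searched. A match on the opposite strand reads as the reverse complement, CAGGTG. It was in 2 windows, both of ZEB1, which has 7 start sites in the table, and in 20.6% of all windows. The ZEB1 window with the most matches is shown, at chr10:31318966-31319265 on the plus strand (GRCh38.p14), with the matches in capitals at 242 and 85 bases before and 33 bases after the start.
ZEB1 promoter: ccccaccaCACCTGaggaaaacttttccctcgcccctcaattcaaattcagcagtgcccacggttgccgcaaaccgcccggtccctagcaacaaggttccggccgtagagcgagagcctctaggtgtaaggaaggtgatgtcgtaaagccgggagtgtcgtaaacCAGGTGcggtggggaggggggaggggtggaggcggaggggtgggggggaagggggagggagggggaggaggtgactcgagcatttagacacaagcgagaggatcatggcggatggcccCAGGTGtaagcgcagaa
ZEB1 was below the floor on all arrays, as given above, so the data hold no level to set beside these letters.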

How the data were processed

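Total RNA of SAS cells was measured on 3 arrays, 2 of ARID1A siRNA and 1 of mock cells. The authors used Affymetrix Expression Console, per the submitters' processing notes; no version is given there. The main values are log2 expression of each probe set, which the authors had normalized. Linear intensity was also deposited for each array; its log2 differed from the main values by at most 5.04e-05. Per the file headers, the siRNA tables add the ratio to mock and a mark on probe sets that differ 2-fold.

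Symbols were updated through the Entrez identifier to RefSeq, for 29766 of 31134 named probe sets, and probe sets of a gene were averaged. Genes with a mean under the 30th percentile were left out. A gene counted as below the floor only if all its probe sets were. Differences were fitted with limma 3.58.1 in R 4.3.3 (two-sided, Benjamini-Hochberg over 20582 genes), with a mean-trended prior from the genes untied on the siRNA arrays, since 9918 genes were tied. The unreplicated mock array takes its spread from the siRNA pair. The fit was tested on simulated data. The number of arrays limits the precision.

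Members and lists were chosen with earlier results of these data known. The text names ARID1A, every member, up to 4 genes per list by the smaller of their differences from mock, microRNA and antisense genes, and for members above the floor on all arrays and at least 0.3 from mock, the 3 genes nearest by differences. Other genes named were chosen after their values were seen. MIR205, MIR34C and 1 endothelial marker were not analysed here, and some genes that the rule names are not reported here. Alternatives covered the filter, scaling, probe set choice, prior, value source and leaving out each siRNA array.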

Additional observations from a re-analysis of the deposited data

How the results depend on the processing

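The count of genes called by limma was 0 in each direction under quantile, median and cyclic loess scaling, the brightest probe set per gene, untied genes alone and the linear tables. Without the filter on low values it was 7 higher and 5 lower, and with the prior from all genes 999 higher and 920 lower. Members higher than mock on both siRNA arrays numbered 1, but 3 under quantile normalization and 3 under cyclic loess, and the cause was not tested. All genes higher on both numbered 2703, and 5047 and 5689 under these 2 settings. With 1 siRNA array left out, the members on the higher side of mock numbered 2 to 3 and those on the lower side 4 to 5, against 3 lower on both. Of 69 tests of ARID1A and single members under other settings, 2 crossed the threshold, SNAI2 and TWIST1 with the prior from all genes. With 1 siRNA array left, which allows no test, array 109 alone turned the sign of SNAI1 (0.07) and of SPARC (-0.002), and array 108 alone that of CD44 (-0.002). None of these was called. No paired analysis was possible because the labels give the siRNA and mock arrays no shared replicate numbers. The mock array could not be left out, since it is the only 1 of its group. Signal near the negative control mean limits VIM, SNAI1 and the second CD44 probe set, and gives no level for ZEB1, ZEB2 and TWIST1.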

Other observations

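Antisense and divergent transcripts of the members were also on the array. Of the VIM-AS1 probe sets, 1 was below the floor and the other was at log2 5.75 (array 108) and 5.66 (array 109) with siRNA, against 5.47 in mock cells, beside a VIM value identical on all arrays. ZEB1-AS1 was at 4.69 on all 3 arrays, just above the floor, while ZEB1 lay below it. ZEB2-AS1 was at 3.07 and the SPARC antisense transcript, now named CLMAT3, at 2.81 on all 3 arrays. FN1-DT, which starts divergently from FN1, was at 2.01 (array 108) and 2.21 (array 109) with siRNA, against 2.01 in mock cells, below the floor throughout. Whether the probes of these sets tell the strands apart was not tested.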
